A study of Homo sapiens with 6 samples.

Results

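TRPS1 and 8 other transcription factor genes of luminal epithelial cells (GATA3, FOXA1, TFAP2A, TFAP2B, TFAP2C, SPDEF, GRHL2 and ELF3) were followed in mRNA libraries of the SK-BR-3 line with and without knockdown of GRB2. The genes were taken by their symbols, and all 9 of them were among the 30327 genes with reads and among the 15801 genes with enough reads to test. SK-BR-3 is an established breast cancer line that overexpresses HER2. The 3 si_NC libraries came from cells given a nontargeting siRNA and the 3 si_GRB2 libraries from cells given an siRNA against GRB2, an adaptor protein that links receptor tyrosine kinases to RAS. The study's methods give 1 siRNA sequence against GRB2, so the effects of that sequence and of the loss of GRB2 cannot be told apart. Nothing in the labels says that the 3 libraries of a group came from separate cultures, and p-values then measure only the spread between these libraries, which may be technical.

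Luminal identity in the mammary gland rests on a network of DNA-binding proteins. FOXA1 is a pioneer factor that opens chromatin, GATA3 and the AP-2 proteins (TFAP2A, TFAP2B and TFAP2C) bind beside it at luminal enhancers, and SPDEF, ELF3 and GRHL2 act in epithelial differentiation. TRPS1 has a GATA-type zinc finger but acts mainly as a repressor, recruits corepressor complexes, and is widely used as a marker of breast carcinoma.

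The knockdown was checked before the members were examined, because the labels disagree: titles speak of overexpressed GRB2, descriptions of si_GRB2. GRB2 had 123.9, 129.5 and 125.7 CPM (TMM-normalised reads per 1e6) in si_NC and 27.8, 28.1 and 29.6 CPM in si_GRB2. The log2 fold change was -2.15 (SE 0.04, adjusted p = 3.87e-15 by the quasi-likelihood test of edgeR, adjusted by Benjamini-Hochberg over all tested genes), so GRB2 mRNA was low in every library described as si_GRB2. The libraries held 24810378 to 28532480 reads on genes. The luminal markers KRT8, KRT18, KRT19, EPCAM and ERBB2 were abundant, with a summed level of 3162 to 3510 FPKM (reads scaled by gene length and library size) in si_NC and 2720 to 2834 FPKM in si_GRB2. CDH1, the E-cadherin gene and the remaining luminal marker of the list, had 9 reads over all 6 libraries. The basal list summed to 3.83 to 4.48 FPKM in si_NC and 2.22 to 2.39 FPKM in si_GRB2, while KRT14 had 25 reads and TP63 had 19. Within it KRT5, its most abundant gene, and ACTA2 fell by 1.01 and 1.31 on the log2 scale and OXTR rose by 0.90 (adjusted p = 2.82e-08, 0.00192 and 0.00768, edgeR). ACTA2 had only 12 to 64 reads per library and OXTR 24 to 60. DESeq2, another test of counts, called 2 genes of this list lower and 0 higher, so the rise of OXTR was not called by it. The fibroblast list stayed within 0.38 to 0.51 FPKM and the leukocyte list within 0.36 to 0.82 FPKM in all libraries. The endothelial list held 3.61 to 4.16 FPKM in si_NC and 2.34 to 2.92 FPKM in si_GRB2, nearly all of it CDH5, with 3 reads each of PECAM1 and KDR.

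The members covered a wide range of levels in the control cells. In mean FPKM of the si_NC libraries, which sets genes of different length on one scale, TFAP2C stood at 95.3 ± 1.25 (SD, n = 3), ELF3 at 62.9 ± 3.95, SPDEF at 55.8 ± 3.49, FOXA1 at 14.7 ± 0.22, TFAP2A at 12.2 ± 0.58, TRPS1 at 11.1 ± 0.30, GRHL2 at 2.80 ± 0.08, GATA3 at 0.83 ± 0.12 and TFAP2B at 0.40 ± 0.08. Neighbours in this order did not overlap between libraries except ELF3 and SPDEF, whose ranges met at 58.9 and 59.7 FPKM. TFAP2C lay at the 98.8th percentile of the genes in the FPKM table and GATA3 at the 62.0th, which placed these estrogen receptor-associated factors far apart in a line whose ESR1, the estrogen receptor gene, had 1.04 CPM in si_NC. After GRB2 knockdown a single neighbouring pair changed places, TRPS1 rising above TFAP2A.

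**Figure D1:**
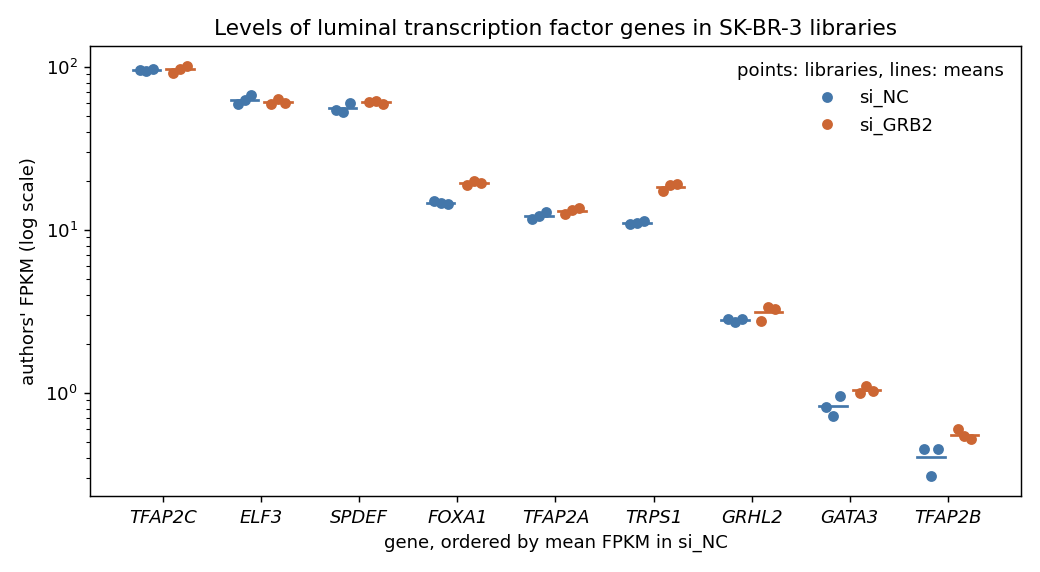
Level of each gene in every library, as the authors' FPKM on a log axis, with genes ordered by their mean in si_NC, 1 point per library and a line at each group's mean. TFAP2C, ELF3 and SPDEF lay above 50 FPKM in all 6 libraries, GATA3 and TFAP2B near or below 1 FPKM, and the si_GRB2 points of TRPS1 and FOXA1 lay clear above their si_NC points.

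TRPS1 showed the largest difference of the 9 genes. It had 153.1, 153.3 and 150.7 CPM in si_NC and 238.9, 247.2 and 251.5 CPM in si_GRB2. The lowest si_GRB2 library was far above the highest si_NC library, and the spread within each group was small beside the gap. The means were 152 ± 1.44 and 246 ± 6.41 CPM (SD, n = 3), a 1.61-fold rise with a log2 fold change of 0.69 (SE 0.029, 95% interval 0.63 to 0.75, adjusted p = 7.39e-11, edgeR's quasi-likelihood test). In FPKM the libraries read 10.8, 11.0 and 11.4 against 17.3, 18.9 and 19.0. Of the 15801 genes tested, 207 had a larger log2 fold change than TRPS1, and 82 of those passed the test at an adjusted p under 0.01. TRPS1 met both limits used for a differentially expressed gene (DEG), an adjusted p under 0.01 and a fold change above 1.5. Tested directly against a change of 1.5-fold with glmTreat, its adjusted p was 0.0469.

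TRPS1 (ENSG00000104447.13) spans 401 kb of the minus strand of chromosome 8 in GRCh38, from 115408496 to 115809673, in a region that is often gained in breast cancer. Its neighbours were not called. Another 10 tested genes lay wholly or partly within 3 Mb of either end of TRPS1, a window chosen after the values were seen. Of these, 0 passed edgeR's test, 1 had an unadjusted p under 0.05, and DESeq2 called 0. They spanned -0.19 to 0.26 on the log2 scale, with -0.02 as their median. They included RAD21, a cohesin subunit, EIF3H, a translation initiation factor subunit, and EXT1, an enzyme of heparan sulfate synthesis.

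FOXA1 was the only other member to pass the test. It had 84.6, 81.6 and 76.5 CPM in si_NC and 103.8, 104.1 and 102.8 CPM in si_GRB2. All si_GRB2 libraries were above all si_NC libraries and lay close together. The means were 80.9 ± 4.06 and 103.6 ± 0.685 CPM (SD, n = 3), a 1.28-fold rise with a log2 fold change of 0.36 (SE 0.039, 95% interval 0.28 to 0.44, adjusted p = 3.17e-06, edgeR's quasi-likelihood test). This is below the 1.5-fold limit of a DEG. In all, 2 of 9 members were called higher, where 9.96% of all tested genes were, and 1 of 9 was a DEG that rose, where 0.829% of all genes were. That DEG is TRPS1, whose rise was known when the members were chosen, so its part in both counts was fixed beforehand. No member was called lower (0 of 9, against 10.5% of all genes), although 1 member, ELF3, had an unadjusted p under 0.05 in that direction and was called by DESeq2. The median log2 fold change of the 9 members was 0.12, against 0.00 over all genes tested.

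**Figure D2:**
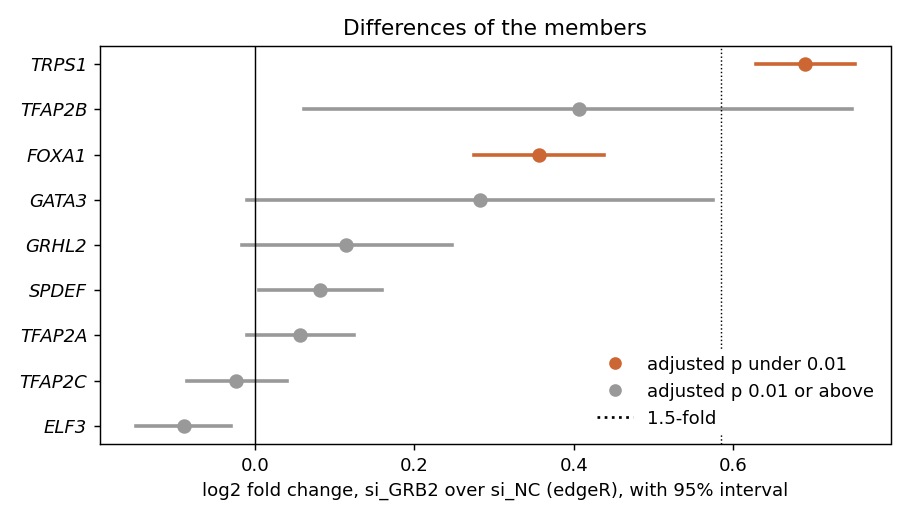
Log2 fold change of each member in si_GRB2 over si_NC from edgeR, with its 95% interval, ordered by size, and colour for an adjusted p under 0.01. The interval of TRPS1 lies above the dotted 1.5-fold line, that of FOXA1 above 0 but below the line, and the wide intervals of TFAP2B and GATA3 belong to the genes with the fewest reads.

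GATA3, the GATA factor that defines luminal cells of the normal gland, was barely expressed in this line. Its libraries held 100, 78 and 109 reads in si_NC and 106, 121 and 106 in si_GRB2, or 3.57, 3.06 and 3.89 CPM against 4.21, 4.41 and 4.19 CPM. The si_GRB2 libraries lay above the si_NC libraries without overlap, but the log2 fold change of 0.28 (SE 0.138, 95% interval -0.01 to 0.57) had an adjusted p of 0.141 by edgeR's quasi-likelihood test. A change as large as that of FOXA1 could therefore not be told from none in GATA3 at this depth. In all, 5 of 9 members had si_GRB2 libraries all above the si_NC libraries in CPM, where 21.1% of all genes did, and 1 of 9 had them all below, where 21.2% did. For such a gene the exact two-sided permutation test gives p = 0.1, the smallest that 3 libraries against 3 allow.

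The levels of TRPS1, FOXA1 and GATA3 were also compared as ratios within each library. The ratio of TRPS1 to FOXA1 in FPKM was 0.723, 0.751 and 0.787 in the si_NC libraries and 0.920, 0.949 and 0.977 in the si_GRB2 libraries. The ratio was higher in every si_GRB2 library (exact permutation p = 0.1, two-sided, n = 3 per group), and the 95% intervals of the log2 fold changes of TRPS1 and FOXA1, given above, do not overlap. The ratio of TRPS1 to its relative GATA3 was 13.2, 15.3 and 11.9 in si_NC and 17.5, 17.2 and 18.5 in si_GRB2, again without overlap. The ratio of FOXA1 to GATA3 was 17.9 ± 2.68 and 18.7 ± 0.484 (SD, n = 3), and its libraries overlapped (exact permutation p = 0.8, two-sided).

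**Figure D3:**
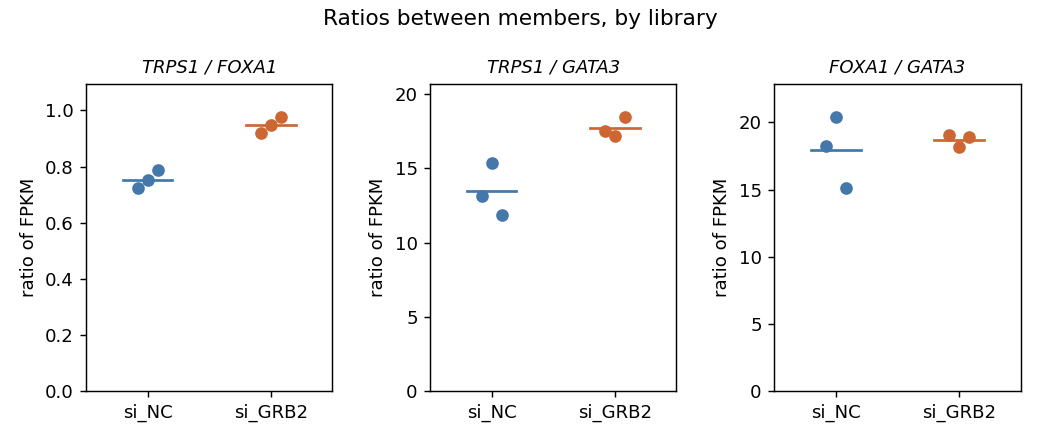
Ratio of FPKM between pairs of members in each library, with si_NC and si_GRB2 side by side and a line at each group's mean. TRPS1 relative to FOXA1 and to GATA3 was higher in all 3 si_GRB2 libraries, while the FOXA1 to GATA3 ratio overlapped between groups.

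FOXA1 (ENSG00000129514.8) lies on the minus strand of chromosome 14 in GRCh38 from 37589552 to 37596059, and shares its upstream end with TTC6, a gene read from the opposite strand that starts 430 bases from the start of FOXA1. TTC6 had 2.03, 1.57 and 1.89 CPM in si_NC and 3.85, 2.77 and 2.88 CPM in si_GRB2. All si_GRB2 libraries of TTC6 were higher, so both genes of this head-to-head pair rose. The log2 fold change was 0.78 (SE 0.186, adjusted p = 0.00396, edgeR's quasi-likelihood test). TTC6 had 396 reads over all libraries, 2.70% of the number on FOXA1, and 16 exon bases of the pair overlap. The libraries were strand-specific, but whether the counting used strand is not given in the sources used here.

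The promoter of FOXA1 is shown as the 250 bases before its start in RefSeq (GRCh38.p14, chr14:37595250-37595499, minus strand). It lies within GENCODE's limits of FOXA1, and part of it is an exon of a noncoding FOXA1 transcript. Capitals mark a match to the forkhead motif, the letters bound by FOXA1 and its relatives, searched on both strands as TGTTTAC or as TATTTAC or as TGTTTGC.
FOXA1: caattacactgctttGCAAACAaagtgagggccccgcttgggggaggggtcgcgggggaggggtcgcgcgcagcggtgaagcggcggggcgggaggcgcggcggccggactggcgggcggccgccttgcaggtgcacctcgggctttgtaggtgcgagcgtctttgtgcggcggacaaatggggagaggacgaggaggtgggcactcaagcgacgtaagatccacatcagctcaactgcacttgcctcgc
The same letters were found in 4 of the 12 promoters that the table of 300-base promoters lists for 6 of the members, 1 promoter each in 4 genes, where 9.57% of all 35116 promoters held them. Beside FOXA1 itself these were GATA3, SPDEF and TFAP2B, and 57 bases around each match are given to show where the letters fall: GATA3 at chr10:8045170-8045226 on the plus strand, in the most upstream of its 6 listed promoters, SPDEF at chr6:34556347-34556403 on the minus strand, and TFAP2B at chr6:50818624-50818680 on the plus strand.
GATA3: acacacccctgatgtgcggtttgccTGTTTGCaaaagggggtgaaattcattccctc
SPDEF: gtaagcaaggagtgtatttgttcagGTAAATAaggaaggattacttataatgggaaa
TFAP2B: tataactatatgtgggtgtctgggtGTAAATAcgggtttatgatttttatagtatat
The match began 235 bases before the start site in FOXA1, 138 in GATA3, 49 in SPDEF and 222 in TFAP2B. Of these 4 genes FOXA1 alone was called in si_GRB2. The AP-2 motif GCCNNNGGC was found in GATA3 only among the 6 members, in 3 of its promoters, against 23.2% of all promoters. TRPS1, TFAP2C and GRHL2 had no promoter to search. The GATA motif (AGATAA or TGATAA, 16.3% of all promoters) and the grainyhead motif AACNGGTT (1.73%) were in none of the windows of the 6 members. The ETS motif CGGAAG (19.5%) was in 1 promoter of GATA3. These are matches of letters, which do not show binding.

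TFAP2C, the most abundant member, carried most of the AP-2 mRNA. TFAP2C had 367.5, 354.8 and 346.7 CPM in si_NC and 344.9, 345.7 and 361.6 CPM in si_GRB2. The groups overlapped, and the log2 fold change was -0.02 (95% interval -0.08 to 0.04, adjusted p = 0.623, edgeR's quasi-likelihood test), with the opposite sign, 0.02, in FPKM. In the fits on FPKM the median of all tested genes was itself 0.0237 to 0.0425. TFAP2A had 122.7, 125.7 and 125.7 CPM in si_NC and 127.4, 128.5 and 133.3 CPM in si_GRB2. These groups did not overlap in CPM but did in FPKM, and the log2 fold change of 0.06 (95% interval -0.01 to 0.12) had an adjusted p of 0.200 by edgeR's test. TFAP2B, with 61 to 115 reads per library, had 3.57, 2.39 and 3.28 CPM in si_NC and 4.57, 3.93 and 3.79 CPM in si_GRB2. Its libraries did not overlap, yet the log2 fold change of 0.41 (SE 0.162, 95% interval 0.06 to 0.75) had an adjusted p of 0.0703 by edgeR's test. It was 0.25 without si_NC library 2, the lowest of its group, and 0.15 by limma on log2(FPKM + 1), a scale that compresses low levels.

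As a share of the summed AP-2 FPKM, TFAP2C made up 88.3 ± 0.407% in si_NC and 87.7 ± 0.0666% in si_GRB2 (SD, n = 3). TFAP2A made up 11.3 ± 0.424% and 11.8 ± 0.0493%, and TFAP2B 0.373 ± 0.0713% and 0.503 ± 0.0606%. The sum was 107.9 ± 1.69 and 110.4 ± 4.85 FPKM and overlapped between groups (exact permutation p = 0.5, two-sided). TFAP2C mRNA thus made up most of the family in both conditions, and the intervals of TFAP2A and TFAP2C hold changes of at most 0.12 on the log2 scale.

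Among the members, neither the epithelial ETS factors ELF3 and SPDEF nor GRHL2 passed the test. ELF3 had 543.5, 569.1 and 574.6 CPM in si_NC and 526.7, 542.0 and 516.9 CPM in si_GRB2. It was the only member with every si_GRB2 library below every si_NC library, by 6.02% on the fitted scale (log2 fold change -0.09, SE 0.028, 95% interval -0.15 to -0.03, adjusted p = 0.0220, edgeR's quasi-likelihood test). This did not meet the limit of 0.01, and in FPKM the groups overlapped. Without the si_NC library 1, the lowest of its group, the log2 fold change was -0.12 with an adjusted p of 0.0048 by the same test.

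SPDEF, an ETS factor of secretory luminal cells, had 134.1, 127.6 and 136.8 CPM in si_NC and 145.9, 140.7 and 135.1 CPM in si_GRB2. The groups overlapped, and the log2 fold change was 0.08 (95% interval 0.01 to 0.16, adjusted p = 0.104, edgeR's quasi-likelihood test). Without si_NC library 2 it was 0.05. GRHL2, a grainyhead factor that maintains epithelial junction genes, had 22.1, 20.6 and 20.6 CPM in si_NC and 20.9, 24.0 and 23.6 CPM in si_GRB2. These groups overlapped as well, and the log2 fold change was 0.12 (95% interval -0.02 to 0.25, adjusted p = 0.183, edgeR's test), and 0.17 without si_GRB2 library 1.

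Antisense and overlapping genes took few reads beside the members. ELF3-AS1, on the opposite strand of ELF3, had 6.12% as many reads as ELF3 and a log2 fold change of -0.00. TFAP2A-AS2 had 2.36% and TFAP2A-AS1 1.88% as many reads as TFAP2A, and GATA3-AS1 had 5 reads in all. The 3 of these with enough reads to test were not called.

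Among close relatives that were not members, ELF5 was the one called. Of 16 relatives in the GATA, FOXA, AP-2, grainyhead and ETS families, 9 had enough reads to test. By edgeR 1 was called higher and 0 lower, while 2 had an unadjusted p under 0.05 in each direction. DESeq2 called 1 higher and 0 lower. The 1 of 9 called higher is near the 9.96% of all genes. ELF5, the ETS factor that directs alveolar luminal differentiation, had 13.5, 12.2 and 11.3 CPM in si_NC and 20.3, 19.0 and 20.9 CPM in si_GRB2. All si_GRB2 libraries were higher, a 1.63-fold rise that made it a DEG like TRPS1 (log2 fold change 0.70, SE 0.074, adjusted p = 2.15e-06, edgeR's quasi-likelihood test). GATA2, a GATA factor known from blood progenitors, stood at 22.8 ± 1.03 FPKM in si_NC, far above GATA3, and its log2 fold change was -0.07 (adjusted p = 0.107, edgeR). GRHL1, a grainyhead relative of GRHL2, stood at 9.05 ± 0.264 FPKM in si_NC, above GRHL2, and its log2 fold change was 0.03 (adjusted p = 0.534, edgeR). EHF, an ETS relative, was higher by 0.19 on the log2 scale without overlap in CPM, but was not called (adjusted p = 0.0109, edgeR). The median of the list was 0.03.

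Among 18 further transcription factors of the luminal network, 16 were tested, and 4 rose and 3 fell at an adjusted p under 0.01 by edgeR's test (all genes: 9.96% and 10.5%). Among those that rose were XBP1, a factor of secretory capacity and the unfolded protein response, KLF4 and OVOL1. XBP1 went from 132 ± 3.46 to 166.8 ± 5.54 FPKM (log2 fold change 0.29, SE 0.032, adjusted p = 3.40e-06). KLF4 had a log2 fold change of 0.35 (SE 0.062) and OVOL1, a repressor of the mesenchymal state, of 0.20 (SE 0.045). MYB, a proliferation-linked factor of luminal cells, had 5.17, 5.89 and 6.17 CPM in si_NC and 2.58, 2.84 and 3.24 CPM in si_GRB2. This was a fall to 0.504 of the control level (log2 fold change -0.99, SE 0.139, adjusted p = 4.95e-05, edgeR). KLF5, a KLF factor of basal and proliferating cells, fell by 0.28 and LMO4, a LIM-domain cofactor, by 0.21 on the log2 scale. CREB3L4, the most abundant of the list after XBP1, stood at 28.1 ± 1.35 FPKM in si_NC and its log2 fold change was -0.13 (adjusted p = 0.0105, edgeR). The median of the list was -0.06, so the list moved in both directions.

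Cofactors through which TRPS1 and the AP-2 proteins act shifted by small amounts. Of 19 such genes 18 were tested, with 2 called higher and 5 lower by edgeR and a median log2 fold change of -0.03 (all genes: 9.96% higher, 10.5% lower). HDAC1 and RBBP4, subunits of the NuRD corepressor complex, rose by a log2 fold change of 0.16 and 0.15. MBD2, the methyl-CpG binding protein of NuRD, had 84.5, 88.0 and 79.2 CPM in si_NC and 54.0, 58.6 and 60.8 CPM in si_GRB2. Its fall was the largest of the list (log2 fold change -0.54, SE 0.048, adjusted p = 4.15e-07, edgeR). KCTD15, an inhibitor of AP-2 activity, fell by 0.18 on the log2 scale, and the NuRD subunits MTA3, MBD3 and MTA2 by 0.16, 0.17 and 0.12. KCTD1, of the same family as KCTD15, was higher by 0.24 on the log2 scale but was not called (adjusted p = 0.0117, edgeR). CITED2 and CITED4, coactivator-binding proteins of the AP-2 factors and the most abundant of the list at 32.7 ± 1.35 and 31.1 ± 1.08 FPKM in si_NC, had log2 fold changes of -0.07 and 0.03 and were not called. The count of cofactors called lower was 1 without si_NC library 2 or si_GRB2 library 3, 2 without si_GRB2 library 2 and 3 without si_NC library 3 or si_GRB2 library 1, and the count called higher was 1 without si_NC library 2, si_GRB2 library 2 or si_GRB2 library 3.

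Genes of the epithelial state moved against TRPS1 and FOXA1 in more cases than with them. Of 22 epithelial genes 20 were tested, and 2 rose and 7 fell by edgeR's test, with a median of -0.02. The 2 of 20 that rose are near the 9.96% of all genes called higher, whereas 10.5% of all genes were called lower. KRT18 had 3847, 4048 and 4024 CPM in si_NC and 2742, 2706 and 2667 CPM in si_GRB2. The simple-epithelium keratins KRT8 and KRT18, which pair in a filament, fell together (log2 fold changes -0.41, SE 0.019, and -0.55, SE 0.022). KRT19, the most abundant of the list at 1246 ± 77.6 FPKM in si_NC, fell by 0.20, and EPCAM, an epithelial adhesion molecule, by 0.55 on the log2 scale. STARD10, a lipid transfer protein, and ESRP2, an epithelial splicing factor, rose by 0.23 and 0.22 on the log2 scale. In bulk RNA, fewer cells of a type and less RNA per cell cannot be told apart. ERBB2, the amplified driver of this line, rose from 3499 ± 74.9 to 4140 ± 132 CPM (log2 fold change 0.24, SE 0.024, adjusted p = 1.14e-06, edgeR).

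The mesenchymal list gave little to compare. Of 16 genes 9 had reads and 4 were tested, and 0 were called by edgeR, 0 had an unadjusted p under 0.05 and DESeq2 called 0. VIM, the vimentin gene, had 18 reads over all libraries, too few to test. They fell as 8, 6 and 3 in si_NC and 0, 1 and 0 in si_GRB2. TGFBR2, a TGF-beta receptor, and SNAI1, a repressor of epithelial genes, were the most abundant at 2.56 ± 0.07 and 1.95 ± 0.111 FPKM in si_NC, with log2 fold changes of 0.03 and -0.04.

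TRPS1 is known as a repressor at sites bound by YAP and TEAD, and 22 target genes of that pathway were therefore listed. Of these 19 were tested, with 2 called higher and 9 lower by edgeR, and the median log2 fold change was -0.29, against 0.00 over all genes. The 2 of 19 called higher are near the 9.96% of all genes, and the 9 called lower stand beside 10.5% of all genes. NT5E, an ecto-nucleotidase, had 22.5, 21.3 and 22.7 CPM in si_NC and 13.2, 13.1 and 13.3 CPM in si_GRB2. It fell by 0.75 on the log2 scale (SE 0.059, adjusted p = 1.06e-07, edgeR) and was a DEG, as were CCN2, a matricellular protein, and TGFB2, a TGF-beta ligand, which fell by 0.73 and 0.59. GADD45A, ASAP1 and AMOTL2 fell by 0.46, 0.43 and 0.28 on the log2 scale. LATS2, a kinase that restrains YAP, and F3, tissue factor, rose by 0.46 and 0.29. CCN1, the most abundant target at 18.5 ± 0.793 FPKM in si_NC, was higher in si_GRB2 by 0.11 on the log2 scale (adjusted p = 0.0433, edgeR). All its si_GRB2 libraries lay above its si_NC libraries in CPM. CCN1 and CCN2, the best-known targets, thus differed in opposite directions, and CCN2 alone passed the test. With limma on log2(FPKM + 1) 2 of 20 targets were called lower and 1 higher, and none of the luminal network or the cofactors was called. Of all 29912 genes in that fit 134 were called lower and 111 higher. Whether the falls were linked to the rise of TRPS1 was not tested.

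**Figure D4:**
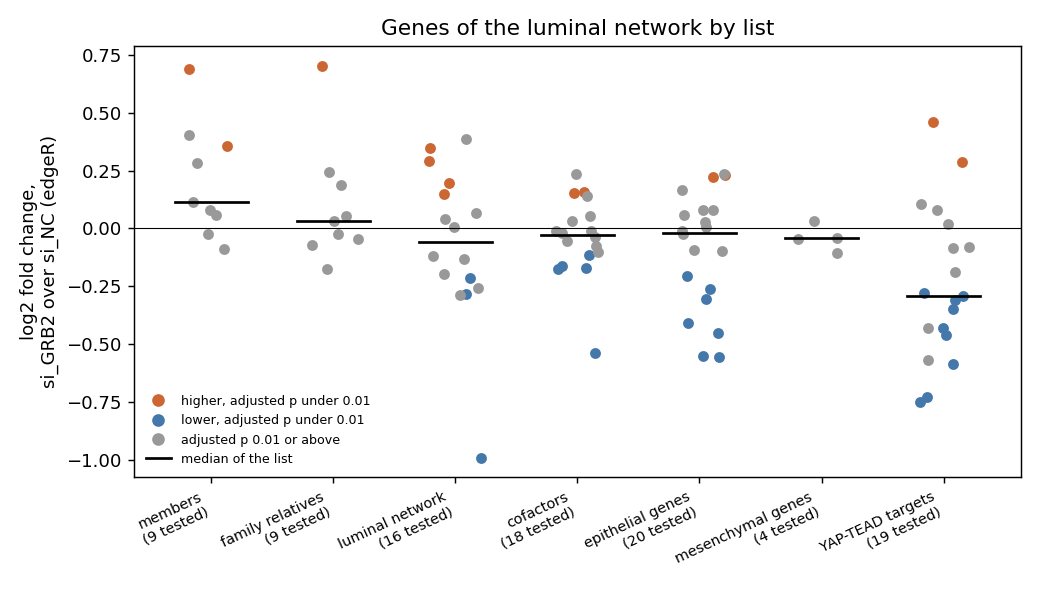
Log2 fold change of every tested gene in each list, si_GRB2 over si_NC from edgeR, with colour for genes called at an adjusted p under 0.01 and a line at each list's median. The median of the YAP-TEAD targets was -0.29, and those of the other 6 lists plotted lay between -0.06 and 0.12.

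The genes whose log2 CPM followed TRPS1 most closely over the 6 libraries, among 10623 genes with a mean of at least 5 CPM, were IL6R, GHITM, G3BP2, EXOC5 and STX12, with Pearson r of 0.9986, 0.9985, 0.9984, 0.9982 and 0.9980. IL6R, the interleukin-6 receptor, had 78.1, 77.5 and 77.9 CPM in si_NC and 96.8, 100.2 and 100.7 CPM in si_GRB2. STX12, an endosomal SNARE, rose 2.23-fold, more than TRPS1 itself. Among the members r with TRPS1 was 0.974 for FOXA1, which ranked 442 of those genes, 0.800 for TFAP2A, 0.665 for GRHL2, 0.642 for SPDEF, -0.280 for TFAP2C and -0.824 for ELF3. The 6 libraries share 1 contrast, so these values mostly describe whether a gene differed between the groups, and no p is given for them.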

How the data were processed

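RNA of 6 SK-BR-3 libraries, 3 si_NC and 3 si_GRB2 by their descriptions, was analysed. The authors removed adaptors with FASTX-Toolkit, aligned reads to GRCh38 with HISAT2, kept uniquely mapped reads and deposited the count of reads per gene and, in a separate table, FPKM per gene, whose scaling total is not given in the sources used here. The counts were scaled by TMM in edgeR 4.0.16 under R 4.3.3. Of 30327 genes, filterByExpr kept 15801, and the quasi-likelihood test compared the groups, tested on simulated data, with Benjamini-Hochberg adjustment over those genes. Called means an adjusted p under 0.01, and a DEG also a rise of more than 1.5-fold or a fall to at most its inverse. FPKM served for levels. Positions came from GENCODE 44 and promoters from RefSeq.

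The members, lists and tests were chosen with earlier results of these data known, the rise of TRPS1 included. Named genes were the members, GRB2, ERBB2, every DEG of the lists and up to 3 called genes per direction and list, the 2 most abundant of each list, genes overlapping a member, and the 5 most like TRPS1. OVOL1, MBD3, MTA2, KCTD1, VIM, RAD21, EIF3H and EXT1 were named after their values were seen. The values of 1 listed gene are not reported here. Alternatives were DESeq2 1.42.0, its size factors, 2 other low-count filters, a replicate block, a limit of 0.05, glmTreat, limma 3.58.1 on log2(FPKM + 1) or log2(FPKM + 0.1), and each library left out. The figures were drawn with matplotlib 3.10.9.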

Additional observations from a re-analysis of the deposited data

How the results depend on the processing

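Over 16 alternatives TRPS1 kept its direction and lay between 0.67 and 0.73 on the log2 scale, and FOXA1 between 0.31 and 0.40. Both passed the limit in 15 of them and lost it under glmTreat (TRPS1 0.69, adjusted p = 0.0469, FOXA1 0.36, adjusted p = 1.0), which left 0 members called higher. ELF3 passed the limit with DESeq2 (-0.088, adjusted p = 0.00874), without a filter on low counts (-0.093, adjusted p = 0.00645), with the limit at 0.05 (-0.089) and without si_NC replicate 1 (-0.121), so 1 member was called lower in these 4 settings. Leaving out each library in turn gave 0 to 1 members called lower and log2 fold changes of ELF3 from -0.121 to -0.074. TFAP2C turned to 0.021 in the 3 limma fits on FPKM. In those fits the median log2 fold change of the tested genes was 0.0237 to 0.0425, against 0.002 in the main fit. The replicate block gave TRPS1 0.69 and changed no call of a member. Same-numbered libraries showed no clear sign of pairing: the correlations of their deviations were 0.232, -0.0948 and 0.0804. Those of differently numbered libraries ran from -0.282 to 0.228. Such values cannot show whether the libraries were prepared in pairs.

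Under glmTreat the relatives, luminal network, cofactors, epithelial genes, mesenchymal genes and YAP-TEAD targets had 0 calls in either direction. Of all 15801 genes tested, glmTreat called only 11 higher and 45 lower. With limma on log2(FPKM + 1) or log2(FPKM + 0.1) the luminal network and cofactors had 0 calls higher and 0 lower (4 and 3, 2 and 5 by edgeR), the epithelial genes 0 and 2 (2 and 7), and the YAP-TEAD targets 1 and 2 (2 and 9). Over all 29912 genes limma on log2(FPKM + 1) called 111 higher and 134 lower, and on log2(FPKM + 0.1) 130 and 151. With a mean FPKM of at least 1 the luminal network had 2 and 0, the cofactors 0 and 1, and the YAP-TEAD targets 4 lower. All 10888 genes of that fit had 712 and 508. A limit of 0.05 gave 2 relatives and 4 cofactors called higher, and 2396 of all 15801 genes. Without a low-count filter 4 cofactors were called higher and 2 mesenchymal genes lower. Of all 30327 genes in that fit 1744 were called higher and 1931 lower. Leaving out each library in turn gave 1 to 3 cofactors called higher and 1 to 4 lower: 1 higher without si_NC 2, si_GRB2 2 or si_GRB2 3, and 1 lower without si_NC 2 or si_GRB2 3, 2 without si_GRB2 2, and 3 without si_NC 3 or si_GRB2 1. Over the same fits 1050 to 1341 of all genes were called higher and 1231 to 1581 lower. The cause of the shifts among the cofactors was not tested. Leaving out each library gave log2 fold changes of 0.25 to 0.52 for TFAP2B, 0.05 to 0.11 for SPDEF, 0.08 to 0.17 for GRHL2 and 0.04 to 0.07 for TFAP2A, with no call. GATA3 and TFAP2B, with 61 to 121 reads per library, had 95% intervals from -0.01 to 0.57 and from 0.06 to 0.75, which hold the change of FOXA1.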
